A study of Mus musculus with 12 samples.

Results

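The genes described here are 10 components of MHC class I antigen presentation and the immunoproteasome in mouse bone marrow-derived macrophages (BMDMs), namely the class I heavy chains H2-K1 and H2-D1, their light chain B2m, the peptide transporter Tap1 and Tap2, tapasin (Tapbp), the immunoproteasome subunits Psmb8, Psmb9 and Psmb10, and the transcriptional activator Nlrc5. They were chosen by name, with earlier results of these data known. All 10 were found among the 43453 genes of the deposited count table, and all 10 passed the filter on low counts in every comparison. RNA was sequenced from BMDMs of C57BL/6 tlr4f/f mice, in which tlr4 carries a floxed allele, and of tlr4f/f-lysM-cre mice, which carry the same floxed tlr4 and express Cre from the lysM (Lyz2) locus, so that deletion is limited to cells that use this promoter, chiefly macrophages and neutrophils. Bone marrow cells were cultured in M-CSF (50 ng/mL, 7 days) and then left unstimulated (LPS-) or stimulated for 6 h with 1 µg/mL of LPS (LPS+), with 3 libraries in each of the 4 groups. The labels do not say whether the libraries of a group came from separate mice, and the age of the mice is not given in them, so p-values here measure the spread between these libraries, which may be technical. The question put to these data was how myeloid TLR4 alters the transcriptional response to LPS.

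MHC class I molecules display peptides from inside the cell to CD8+ T cells. Peptides are cut by the proteasome, carried into the endoplasmic reticulum by the TAP transporter and loaded, with the help of tapasin, onto a heavy chain paired with beta-2 microglobulin. Interferons and other inflammatory signals replace the constitutive catalytic subunits of the 20S core by their immunoproteasome counterparts, and NLRC5 activates class I genes together with factors bound at conserved promoter boxes. LPS is the ligand of TLR4, and macrophages that sense it make interferon beta, which acts back on the same cells.

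The column headings of the count table name the groups here, because 3 genes went against them. Tlr4, the targeted gene, was at 114 ± 34.8 CPM (counts per 1000000 after TMM scaling, mean ± SD, n = 3) in the LPS- tlr4f/f libraries, 109 ± 12.7 in LPS- tlr4f/f-lysM-cre, 27.9 ± 3.37 in LPS+ tlr4f/f and 25.5 ± 1.65 in LPS+ tlr4f/f-lysM-cre. Lyz2, the locus that carries Cre, had 383956 to 1244818 counts in LPS- tlr4f/f, 221787 to 303431 in LPS- tlr4f/f-lysM-cre, but 494 to 623 in LPS+ tlr4f/f and 2127 to 3272 in LPS+ tlr4f/f-lysM-cre. Il1b, a gene induced by LPS, had 52432 to 306385 counts in LPS- tlr4f/f-lysM-cre and 97411 to 113136 in LPS+ tlr4f/f-lysM-cre, against 4 to 405 in LPS- tlr4f/f and 128 to 195 in LPS+ tlr4f/f. These 3 genes would follow the labels if the heading LPS+ tlr4f/f changed places with LPS- tlr4f/f-lysM-cre. Every comparison below is therefore given in both readings, as headed and exchanged, while group names stay as headed throughout. Each library held 33577440 to 56445989 counts with 1 transcript row per gene. All 7 macrophage markers were detected in every group, and their summed level was 6253 to 7217 CPM in LPS- tlr4f/f, 10562 to 13690.4 in LPS- tlr4f/f-lysM-cre, 4443 to 4700.2 in LPS+ tlr4f/f and 7715 to 7917 in LPS+ tlr4f/f-lysM-cre. The markers did not all move together. The means of Adgre1, Itgam, Fcgr1, Mertk and Cd14 were higher in LPS- tlr4f/f-lysM-cre than in LPS- tlr4f/f. Those of Csf1r (1374 against 2074 CPM) and Cd68 (827 against 865 CPM) were lower. Summed B lymphocyte and T and NK lymphocyte markers stayed at or below 1.96 CPM in every library, whereas 6 dendritic cell markers summed to 4.74 to 13.1 CPM in LPS- tlr4f/f-lysM-cre and 2.88 to 3.72 CPM in LPS+ tlr4f/f-lysM-cre, with Siglech at 0 in LPS- tlr4f/f and Cd209a at 0 in LPS- tlr4f/f-lysM-cre, and were at or below 0.772 CPM elsewhere. Fibroblast markers reached 1462 CPM in replicate 3 and 922 CPM in replicate 1 of LPS- tlr4f/f-lysM-cre and 657 CPM in replicate 1 of LPS- tlr4f/f. Neutrophil markers reached 33.6 CPM in replicate 3 of LPS- tlr4f/f-lysM-cre. In that group Ngp reached 21.6 CPM, while Ly6g had at most 1 count per library. The part of these cells in the results was not tested.

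Of the 10 genes, 7 lie on chromosome 17 of mm10 in or near the H2 complex, B2m lies on chromosome 2, and Psmb10 and Nlrc5 lie on chromosome 8 (GENCODE vM21). Psmb9, Tap1, Psmb8 and Tap2 stand next to one another within 34335 bases, between 34181987 and 34216321. By their RefSeq starts, Tap1 on the plus strand and Psmb9 on the minus strand are read away from each other with 225 bases between them. This stretch, chr17:34187331-34187555 of GRCm38.p6 on the plus strand, is shown because it lies before both RefSeq starts. These are the starts of the transporter and of an immunoproteasome subunit. GENCODE vM21 differs, as there Psmb9 begins at 34187764, so that the stretch lies inside Psmb9. By that annotation Tap1 and Psmb9 share 212 exonic bases. A CCAAT match (Y box) and a TGACG match (X2 box core) are in capitals.
Tap1 and Psmb9: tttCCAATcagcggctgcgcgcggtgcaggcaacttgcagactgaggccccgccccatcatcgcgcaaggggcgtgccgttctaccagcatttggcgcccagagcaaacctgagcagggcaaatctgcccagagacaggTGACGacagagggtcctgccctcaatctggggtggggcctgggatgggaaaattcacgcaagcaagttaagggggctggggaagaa
The stretches just before the RefSeq starts of H2-K1 (chr17:34000348-34000522, minus strand) and B2m (chr2:122147512-122147686, plus strand) are shown because the heavy chain and its light chain, on different chromosomes, both hold NF-kB, TGACG and ATTGG matches. Capitals mark matches to an NF-kB motif (GGG, any 2 bases, then TTTCC or TTCCC), the core of the interferon-stimulated response element (GAAA, any 2 bases, GAAA), TGACG and CCAAT, on either strand.
H2-K1: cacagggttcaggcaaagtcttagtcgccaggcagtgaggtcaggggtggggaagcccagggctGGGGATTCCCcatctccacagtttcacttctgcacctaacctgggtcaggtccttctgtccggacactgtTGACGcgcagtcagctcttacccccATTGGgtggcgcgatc
B2m: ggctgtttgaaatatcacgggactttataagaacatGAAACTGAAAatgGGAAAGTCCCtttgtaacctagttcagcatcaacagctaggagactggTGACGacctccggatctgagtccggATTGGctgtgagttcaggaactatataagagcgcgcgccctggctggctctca

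RefSeq windows from 250 bases before to 50 bases after the start were at hand for 8 of the 10 genes, not for Tap2 and Nlrc5. The NF-kB motif was found in 3 of these 8 windows, those of H2-K1 at -111, H2-D1 at -171 and B2m at -126 from the start, against 3.14% of 27025 mouse promoters. TGACG was found in 5 of 8 windows against 21% of promoters, and CCAAT in 6 of 8 against 37.9%. The windows of Tap1 and Psmb9 share 275 of their 300 bases, so that the same TGACG and the same CCAAT are counted in both. H2-K1 and H2-D1 are paralogs with nearly the same bases from the NF-kB match to TGACG. Their matches are therefore not independent of each other. The interferon-stimulated response element core, in the exact form given above, was found in B2m alone (3.49% of promoters). The GAS motif TTCNNNGAA was found in Psmb8 alone (8.47% of promoters). Variant forms of these elements were not searched for, so a window without a match, as in H2-K1 and H2-D1, may still hold one. In H2-K1, H2-D1 and B2m, TGACG was followed by ATTGG, the reverse complement of CCAAT, with 25 bases from the first base of one to that of the other. That spacing, which was chosen after the matches were seen, occurred in 26 of the 27025 promoters (0.0962%), and 1 of the others belongs to the class I heavy chain H2-M3. The heavy chains H2-K1, H2-D1 and H2-M3 belong to the same gene family and are not independent cases. Matches did not overlap one another, and a match describes the letters and shows no binding.

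The mean of every one of the 10 genes was highest in LPS- tlr4f/f-lysM-cre as headed, and lowest in LPS+ tlr4f/f. In 9 of the 10, LPS+ tlr4f/f-lysM-cre came next to the highest and LPS- tlr4f/f next to the lowest, and in H2-D1 these middle groups changed places. Read with the headings exchanged, this order is tlr4f/f with LPS, tlr4f/f-lysM-cre with LPS, tlr4f/f without LPS and tlr4f/f-lysM-cre without LPS. Neighbouring groups did not separate everywhere. The highest group overlapped the next in Psmb10, the middle groups overlapped in H2-K1 and B2m, and the lowest groups overlapped in B2m, Tap1, Psmb9 and Psmb10. The distance between the highest and the lowest group mean was 4.13 on the log2 scale for Nlrc5, 3.77 for Tap1 and 3.25 for Tap2, but 1.33 for H2-D1 and 1.30 for B2m. In a bulk sample, fewer cells that express a gene and less RNA per cell cannot be told apart.

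**Figure D1:**
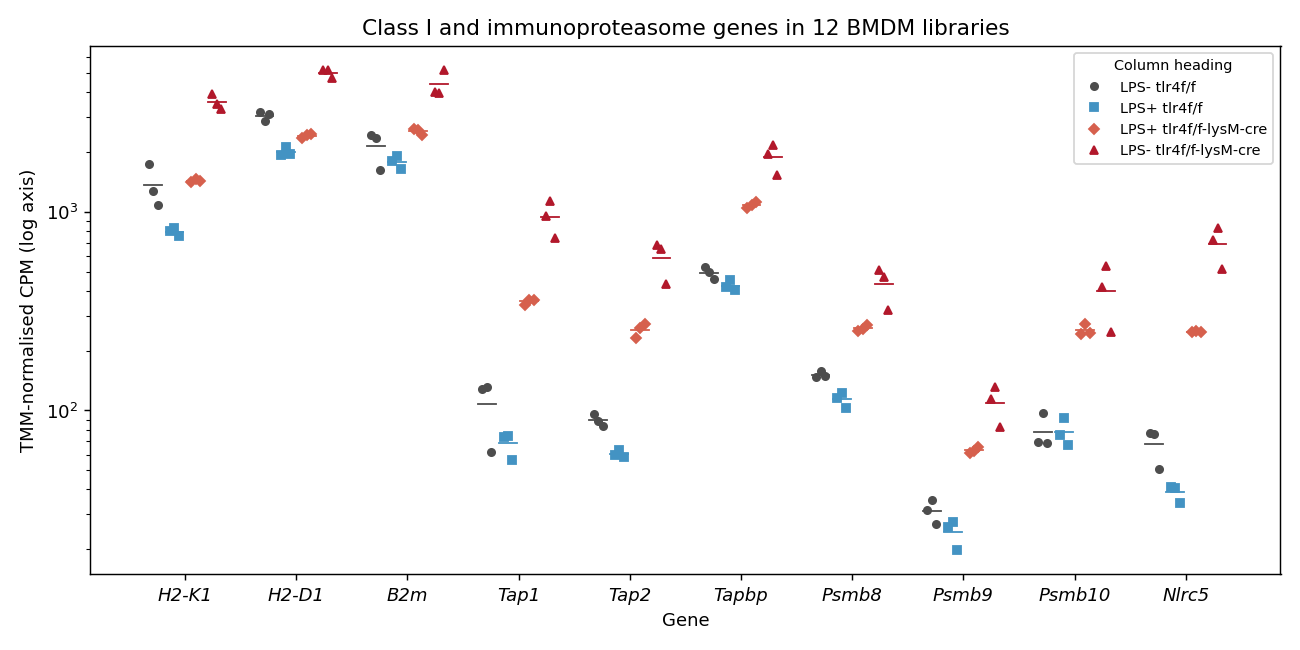
TMM-normalised CPM (log axis) of the 10 genes in the 12 libraries, with 1 point per library, a line at each group mean, and colours and shapes for the 4 column headings. The points of LPS- tlr4f/f-lysM-cre lie highest, except in Psmb10, where they overlap those of LPS+ tlr4f/f-lysM-cre.

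Differences were tested with edgeR's quasi-likelihood test over all genes kept, with Benjamini-Hochberg adjustment. A differentially expressed gene (DEG) differed by more than 2-fold at an adjusted p under 0.01. Genes with an adjusted p below 0.05 and no limit on the fold were also counted. In LPS- tlr4f/f-lysM-cre compared with LPS- tlr4f/f (below, between the LPS- groups), which is the genotype comparison without LPS as headed and LPS in tlr4f/f BMDMs when exchanged, 8 of the 10 genes were higher DEGs (all but H2-D1 and B2m), where 9.26% of 14649 genes tested were higher DEGs (17.1% in either direction). All 10 were higher at an adjusted p below 0.05, where 17.9% of all genes were, and in all 10 the libraries of LPS- tlr4f/f-lysM-cre lay above those of LPS- tlr4f/f without overlap, as they did in 25% of all genes. The median log2 fold change was 1.86 over the 10 genes and -0.08 over all genes tested. The count of 8 was 5 with any 1 of the LPS- tlr4f/f libraries or replicate 1 of LPS- tlr4f/f-lysM-cre left out. In LPS+ tlr4f/f-lysM-cre compared with LPS+ tlr4f/f (below, between the LPS+ groups), the genotype comparison with LPS as headed and LPS in tlr4f/f-lysM-cre BMDMs when exchanged, 7 of 10 were higher DEGs (all but H2-K1, H2-D1 and B2m), where 10.8% of 14551 genes were (21.8% in either direction), and all 10 were higher at an adjusted p below 0.05 (30.5%), with a median of 1.38 against -0.02 over all genes. The libraries were higher without overlap in all 10 and in 32.6% of all genes.

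In LPS+ compared with LPS- tlr4f/f-lysM-cre, which is LPS in tlr4f/f-lysM-cre BMDMs as headed and the genotype comparison with LPS when exchanged, 5 of the 10 genes were lower DEGs (H2-K1, H2-D1, Tap1, Tap2 and Nlrc5), where 3.66% of 14245 genes were lower DEGs (6.09% in either direction). At an adjusted p below 0.05, 9 of 10 were lower (14.2% of all genes), Psmb10 being the exception, and the median was -0.91 against 0.03 over all genes. The libraries of these 9 were lower without overlap, as in 22.8% of all genes. The count of 5 rested on few libraries. It was 0 after leaving out any 1 of the 3 LPS+ tlr4f/f-lysM-cre libraries, when 4, 7 and 15 DEGs were left among all genes, and 4 or 5 after leaving out any 1 of the LPS- tlr4f/f-lysM-cre libraries. Between LPS+ tlr4f/f and LPS- tlr4f/f, LPS in tlr4f/f BMDMs as headed and the genotype comparison without LPS when exchanged, none of the 10 genes was a DEG, and none of 14712 genes was (0%). By DESeq2 and limma voom the 10 genes also held 0 DEGs, and 493 and 51 of all genes were called. An unadjusted p below 0.05 in the edgeR test was reached by 5 of the 10 (H2-K1, H2-D1, Tap2, Psmb8 and Nlrc5) and by 24.6% of all genes, and an adjusted p below 0.05 by 0 of the 10 and 1.28% of all genes. Here 6 of the 10 genes had all 3 LPS+ tlr4f/f libraries below all 3 LPS- tlr4f/f libraries, as 18.1% of all genes had, and 4 overlapped, with a median log2 fold change of -0.47 against -0.03 over all genes. The 4 comparisons share groups, so their values are given side by side.

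**Figure D2:**
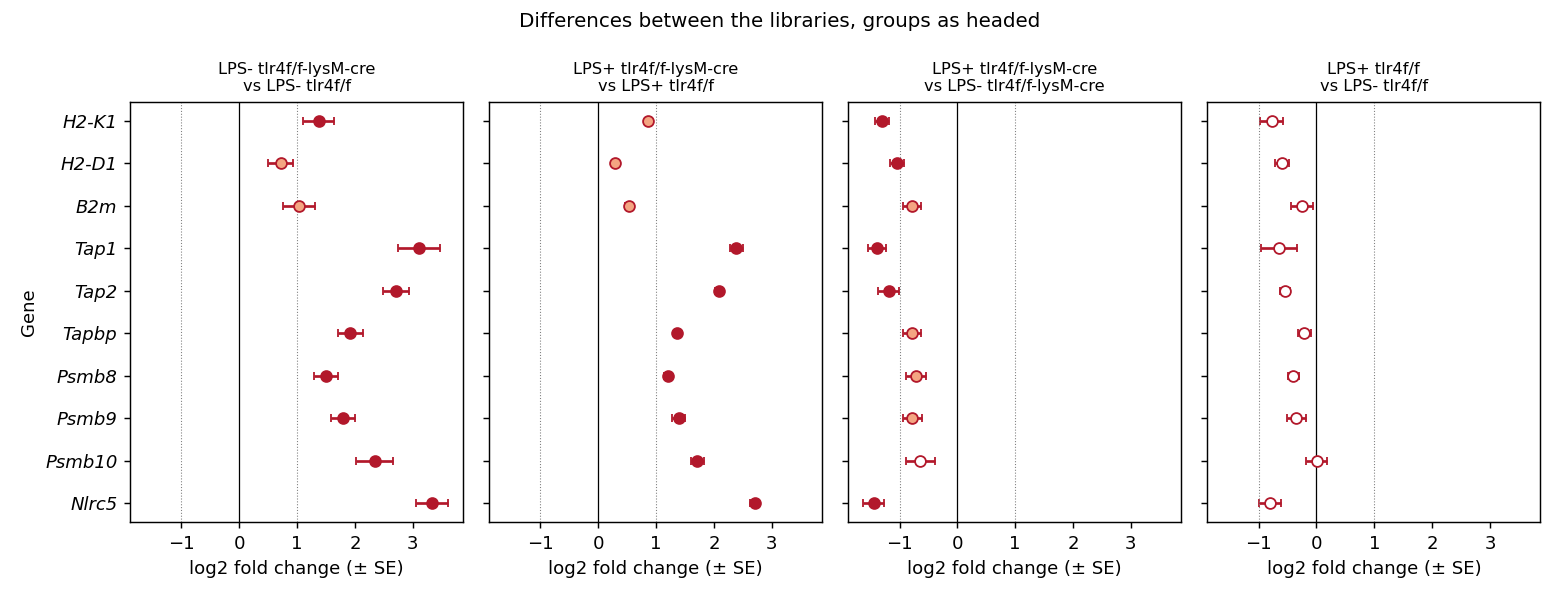
Log2 fold change (x axis, points with standard error bars, edgeR) of the 10 genes (y axis) in 4 comparisons of 3 against 3 libraries, named by the column headings. Filled dark points are DEGs, light points passed an adjusted p of 0.05 only, open points did not, and the dotted lines mark a fold of 2. The panels comparing tlr4f/f-lysM-cre with tlr4f/f headings lie to the right of 0 for every gene, between 0.29 (H2-D1) and 3.33 (Nlrc5).

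H2-K1 and H2-D1 encode the classical heavy chains that bind peptide, and had the highest CPM of the 10 genes together with B2m, the invariant light chain. H2-K1 (chr17:33996017-34000347, minus strand) stood at 1753, 1282 and 1084 CPM in the 3 LPS- tlr4f/f libraries, 3907, 3507 and 3317 in LPS- tlr4f/f-lysM-cre, 799, 833 and 754 in LPS+ tlr4f/f, and 1412, 1472 and 1430.0 in LPS+ tlr4f/f-lysM-cre. The LPS- tlr4f/f-lysM-cre libraries lay above all others and the LPS+ tlr4f/f libraries below all others. The log2 fold change was 1.37 (SE 0.264, adjusted p = 0.00871) between the LPS- groups and 0.86 (SE 0.0558, adjusted p = 3.94e-08) between the LPS+ groups, the latter under a fold of 2. H2-K1 was lower in LPS+ than in LPS- tlr4f/f-lysM-cre, with a log2 fold change of -1.30 (SE 0.127, adjusted p = 0.00177).

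H2-D1 (chr17:35262730-35267499, plus strand) stood at 3174, 2858 and 3106 CPM in LPS- tlr4f/f and 5165, 5189.8 and 4725 in LPS- tlr4f/f-lysM-cre. It stood at 1941, 2114 and 1949 in LPS+ tlr4f/f and 2365, 2447 and 2470.0 in LPS+ tlr4f/f-lysM-cre. No groups overlapped, and unlike in the other 9 genes the LPS- tlr4f/f libraries lay above the LPS+ tlr4f/f-lysM-cre libraries. Its log2 fold changes of 0.71 (SE 0.216, adjusted p = 0.0407) between the LPS- groups and 0.29 (SE 0.0561, adjusted p = 0.000691) between the LPS+ groups were the smallest of the 10 genes in both comparisons, and neither made it a DEG. It was a DEG only between LPS+ and LPS- tlr4f/f-lysM-cre, at -1.04 (SE 0.120, adjusted p = 0.00281). The 2 heavy chains are paralogs, with each other and with the H2-Q and H2-T genes, and how reads were split between them is uncertain.

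B2m (chr2:122147686-122153083, plus strand) stood at 2439, 2363 and 1636 CPM in LPS- tlr4f/f and 4030.1, 3993 and 5193 in LPS- tlr4f/f-lysM-cre. It stood at 1812, 1903 and 1640.0 in LPS+ tlr4f/f and 2621, 2592 and 2429 in LPS+ tlr4f/f-lysM-cre. Replicate 3 of LPS- tlr4f/f lay below all 3 LPS+ tlr4f/f libraries, and replicate 1 lay within the range of LPS+ tlr4f/f-lysM-cre. B2m was higher in LPS- tlr4f/f-lysM-cre than in LPS- tlr4f/f by 1.03 on the log2 scale (SE 0.275, adjusted p = 0.027), which missed the DEG criteria, and higher in LPS+ tlr4f/f-lysM-cre than in LPS+ tlr4f/f by 0.52 (SE 0.0644, adjusted p = 1.56e-05). Per kilobase of transcript, the level in LPS- tlr4f/f-lysM-cre was 5135 CPM for B2m, 2895 for H2-D1 and 1677 for H2-K1, against 686 for Tapbp, 354 for Psmb8, 319 for Tap1, 278 for Psmb10, 236 for Tap2, 136 for Psmb9 and 90.6 for Nlrc5.

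Tap1 and Tap2 encode the subunits of the transporter that moves peptides into the endoplasmic reticulum, and both had larger fold changes than the heavy chains between the LPS- groups and between the LPS+ groups, differences that were not tested against each other. Tap1 (chr17:34187553-34197225, plus strand) stood at 129, 132 and 61.7 CPM in LPS- tlr4f/f and 949, 1129.8 and 740.2 in LPS- tlr4f/f-lysM-cre. It stood at 73.9, 74.7 and 56.2 in LPS+ tlr4f/f and 341, 359 and 362 in LPS+ tlr4f/f-lysM-cre. Replicate 3 of LPS- tlr4f/f lay within the range of LPS+ tlr4f/f, and the tlr4f/f-lysM-cre groups were apart from both and from each other. The log2 fold change was 3.11 (SE 0.363, adjusted p = 0.00165) between the LPS- groups, 2.39 (SE 0.108, adjusted p = 1.31e-07) between the LPS+ groups and -1.39 (SE 0.162, adjusted p = 0.00287) between LPS+ and LPS- tlr4f/f-lysM-cre.

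Tap2 (chr17:34203527-34216321, plus strand) stood at 95.9, 88.2 and 83.8 CPM in LPS- tlr4f/f and 678, 652 and 435 in LPS- tlr4f/f-lysM-cre. It stood at 59.7, 63.2 and 58.6 in LPS+ tlr4f/f and 232, 260.2 and 273 in LPS+ tlr4f/f-lysM-cre, with no overlap between any groups. Its log2 fold change was 2.71 (SE 0.222, adjusted p = 0.000665) between the LPS- groups, 2.09 (SE 0.0679, adjusted p = 7.77e-11) between the LPS+ groups and -1.19 (SE 0.185, adjusted p = 0.00689) between LPS+ and LPS- tlr4f/f-lysM-cre. Tap2 had an adjusted p of 0.051 between LPS+ and LPS- tlr4f/f, at a log2 fold change of -0.55.

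Tapbp encodes tapasin, which bridges the transporter and the heavy chain during loading. Tapbp (chr17:33915899-33929292, plus strand) stood at 526, 500.3 and 460.3 CPM in LPS- tlr4f/f and 1960.5, 2164 and 1538 in LPS- tlr4f/f-lysM-cre. It stood at 417, 452 and 405 in LPS+ tlr4f/f and 1042, 1089.8 and 1124 in LPS+ tlr4f/f-lysM-cre. No groups overlapped. It was a higher DEG between the LPS- groups at 1.92 (SE 0.215, adjusted p = 0.00147) and between the LPS+ groups at 1.36 (SE 0.0600, adjusted p = 1.16e-09), and in LPS+ compared with LPS- tlr4f/f-lysM-cre it was at -0.78 (adjusted p = 0.0123), which missed the DEG criteria.

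Psmb8, Psmb9 and Psmb10 encode the catalytic subunits of the immunoproteasome, which take the places of the constitutive subunits Psmb5, Psmb6 and Psmb7. Psmb8 (chr17:34197721-34201454, plus strand) stood at 148, 158 and 149 CPM in LPS- tlr4f/f, 507, 469 and 323 in LPS- tlr4f/f-lysM-cre, 115, 123 and 103 in LPS+ tlr4f/f, and 252, 258 and 271 in LPS+ tlr4f/f-lysM-cre. Psmb9 (chr17:34181987-34187764, minus strand) stood at 31.7, 35.5 and 26.8 CPM in LPS- tlr4f/f, 114, 132 and 83.0 in LPS- tlr4f/f-lysM-cre, 26.0, 27.4 and 19.8 in LPS+ tlr4f/f, and 60.9, 62.9 and 65.7 in LPS+ tlr4f/f-lysM-cre. In both genes the tlr4f/f-lysM-cre groups lay above both tlr4f/f groups, and the tlr4f/f groups overlapped each other in Psmb9 only. Psmb10 (chr8:105935735-105938444, minus strand) stood at 69.4, 96.8 and 69.0 CPM in LPS- tlr4f/f, 420.4, 532 and 249.6 in LPS- tlr4f/f-lysM-cre, 75.2, 91.2 and 67.1 in LPS+ tlr4f/f, and 242, 272 and 246 in LPS+ tlr4f/f-lysM-cre. Replicate 3 of LPS- tlr4f/f-lysM-cre lay within the range of LPS+ tlr4f/f-lysM-cre, and the tlr4f/f groups overlapped each other.

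Between the LPS- groups, the log2 fold changes of the immunoproteasome subunits were 1.50 for Psmb8 (SE 0.206, adjusted p = 0.00273), 1.80 for Psmb9 (SE 0.211, adjusted p = 0.00173) and 2.34 for Psmb10 (SE 0.313, adjusted p = 0.00254). Between the LPS+ groups they were 1.20 for Psmb8 (SE 0.0672, adjusted p = 1.03e-08), 1.39 for Psmb9 (SE 0.111, adjusted p = 4.64e-06) and 1.71 for Psmb10 (SE 0.110, adjusted p = 2.22e-06), so all 3 were higher DEGs in both comparisons. None of the 3 was a DEG between LPS+ and LPS- tlr4f/f-lysM-cre, where Psmb8 was at -0.72 (adjusted p = 0.026), Psmb9 at -0.78 (adjusted p = 0.0168) and Psmb10 at -0.64 (adjusted p = 0.105). Psmb10 was the gene with the least difference between LPS+ and LPS- tlr4f/f, at a log2 fold change of 0.0041 (adjusted p = 0.991).

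Nlrc5 encodes the activator of class I transcription and had the largest log2 fold change of the 10 genes in each of the 4 comparisons. Nlrc5 (chr8:94434356-94527272, plus strand) stood at 76.9, 75.7 and 50.9 CPM in LPS- tlr4f/f and 726, 830.2 and 514 in LPS- tlr4f/f-lysM-cre. It stood at 41.3, 40.5 and 34.2 in LPS+ tlr4f/f and 248, 253 and 248 in LPS+ tlr4f/f-lysM-cre. No groups overlapped. The log2 fold change was 3.33 (SE 0.279, adjusted p = 0.000672) between the LPS- groups and 2.70 (SE 0.0718, adjusted p = 1.37e-11) between the LPS+ groups. It was -1.45 (SE 0.177, adjusted p = 0.00329) between LPS+ and LPS- tlr4f/f-lysM-cre and -0.80 (adjusted p = 0.0762) between LPS+ and LPS- tlr4f/f. In either reading of the headings, the order of the fold changes between the LPS- groups ran from Nlrc5, Tap1 and Tap2 over Psmb10, Tapbp, Psmb9 and Psmb8 to H2-K1, B2m and H2-D1.

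LPS- tlr4f/f keeps its name in both readings, as does LPS+ tlr4f/f-lysM-cre, although genotype and LPS differ together between them and cannot be told apart. Of the 10 genes, 6 were higher DEGs in LPS+ tlr4f/f-lysM-cre, where 6.93% of 14595 genes were (13.4% in either direction). These were Nlrc5 at 1.88 (SE 0.176, adjusted p = 0.000806), Tap1 at 1.72 (adjusted p = 0.00581), Psmb10 at 1.70 (adjusted p = 0.000874), Tap2 at 1.52 (adjusted p = 0.000349), Tapbp at 1.14 (adjusted p = 0.000929) and Psmb9 at 1.02 (adjusted p = 0.00174). With Psmb8, which was higher by 0.78 (adjusted p = 0.00131) and under a fold of 2, 7 of 10 were higher at an adjusted p below 0.05, where 20.4% of all genes were. The class I molecule itself did not pass the test: the log2 fold change was 0.071 for H2-K1 (adjusted p = 0.795), 0.25 for B2m (adjusted p = 0.32) and -0.32 for H2-D1 (adjusted p = 0.0776), the libraries of H2-K1 and B2m overlapped, and those of H2-D1 were lower with no overlap. The median over the 10 genes was 1.08 against -0.05 over all genes. The count of 6 was 3 with replicate 2 of LPS+ tlr4f/f-lysM-cre left out.

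The interaction of genotype and LPS, which has the same value in both readings, was fitted over all 12 libraries to ask whether the LPS difference depends on the genotype. All 10 estimates were negative, from -0.75 for Tap1 to -0.32 for Psmb8, with a median of -0.55 against 0.05 over all genes. None of the 10 genes was a DEG by the edgeR test, where 0.994% of 15792 genes were, and none passed an adjusted p of 0.05, which 6.99% of all genes did. An unadjusted p below 0.05 in the edgeR test was reached by 4 of the 10 and by 23.4% of all genes. The 4 were Tapbp (-0.58, adjusted p = 0.105), Tap2 (-0.64, adjusted p = 0.106), H2-D1 (-0.44, adjusted p = 0.142) and Nlrc5 (-0.65, adjusted p = 0.177). DESeq2 and limma voom also gave 0 DEGs among the 10, although with DESeq2 the adjusted p was 0.000907 for H2-D1, 0.0165 for Tapbp and 0.0352 for Tap2, at terms of -0.52, -0.65 and -0.72. DESeq2 called more of all genes here than edgeR did. The share of all genes under an adjusted p of 0.05 with DESeq2 was not counted, so these values have no background beside them.

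The immunoproteasome subunits were next set against their constitutive counterparts as a ratio of counts per transcript length within each library. Psmb8 to Psmb5 was 0.803, 0.987 and 1.10 in LPS- tlr4f/f, 1.96, 2.14 and 1.61 in LPS- tlr4f/f-lysM-cre, 0.765, 0.790 and 0.645 in LPS+ tlr4f/f, and 1.14, 1.10 and 1.13 in LPS+ tlr4f/f-lysM-cre. Psmb9 to Psmb6 had a mean of 0.369 ± 0.0478 (SD, n = 3), 0.572 ± 0.0238, 0.218 ± 0.0372 and 0.329 ± 0.0129 in the same order, and Psmb10 to Psmb7 one of 0.667 ± 0.133, 1.98 ± 0.725, 0.573 ± 0.102 and 1.40 ± 0.0982. All 3 ratios were higher without overlap in LPS- tlr4f/f-lysM-cre than in LPS- tlr4f/f, with log2 differences of 0.99, 0.64 and 1.53, and in LPS+ tlr4f/f-lysM-cre than in LPS+ tlr4f/f, with 0.62, 0.61 and 1.30. Each of these 6 differences had p = 0.1 in a two-sided exact permutation test, the smallest p that 3 against 3 libraries can give, and an adjusted p of 0.125 over the 15 exact tests of this family. Between LPS+ and LPS- tlr4f/f-lysM-cre the log2 differences were -0.75, -0.80 and -0.44, with overlap in Psmb10 to Psmb7 (exact p = 0.2, adjusted p = 0.231), and between LPS+ and LPS- tlr4f/f they were -0.39, -0.77 and -0.21, with overlap in the same ratio (exact p = 0.4, adjusted p = 0.4). In LPS+ tlr4f/f-lysM-cre compared with LPS- tlr4f/f the differences were 0.24, -0.16 (exact p = 0.3, adjusted p = 0.321) and 1.09, and overlapped for Psmb9 to Psmb6. Psmb6 was itself a higher DEG there, like Psmb9, at 1.15 (SE 0.202, adjusted p = 0.00628).

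**Figure D3:**
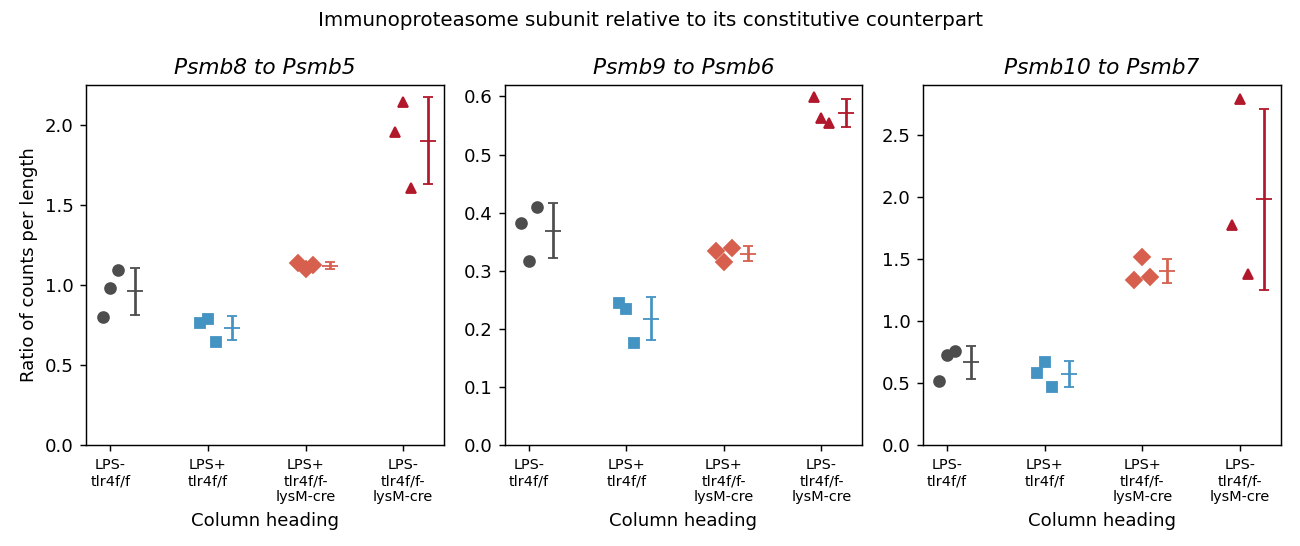
Ratio of counts per transcript length (y axes from 0) of each immunoproteasome subunit to the constitutive subunit it replaces, in 3 libraries of each of the 4 column headings, with the mean and SD beside the points. The ratios are highest in LPS- tlr4f/f-lysM-cre, at 1.91 ± 0.272 for Psmb8 to Psmb5, 0.572 ± 0.0238 for Psmb9 to Psmb6 and 1.98 ± 0.725 for Psmb10 to Psmb7.

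The rest of the pathway was followed through lists taken from general knowledge, with earlier results of these data known. Over all genes tested, 9.26% were higher DEGs between the LPS- groups and 10.8% between the LPS+ groups (17.1% and 21.8% in either direction). Between LPS+ and LPS- tlr4f/f-lysM-cre, 3.66% were lower DEGs. These shares belong beside the counts of DEGs in each list below. Of 17 other class I heavy chains and related molecules, 14 were tested, of which 9 were higher and 1 a lower DEG between the LPS- groups, 7 were higher and 2 lower DEGs (Hfe and Mr1) between the LPS+ groups, and 10 were lower DEGs between LPS+ and LPS- tlr4f/f-lysM-cre. H2-M2, a nonclassical heavy chain, had the largest rise, at 6.53 (SE 0.594, adjusted p = 0.000921) from 42 to 154 counts in the LPS- tlr4f/f libraries to 3588 to 8005 in LPS- tlr4f/f-lysM-cre. It was also the largest between the LPS+ groups at 7.01 (SE 0.232, adjusted p = 2.83e-07). Hfe, a class I-like regulator of iron uptake, moved the other way in both, at -1.35 (adjusted p = 0.00207) and -1.49 (adjusted p = 3.04e-08). The largest fall between LPS+ and LPS- tlr4f/f-lysM-cre was that of H2-Q6 at -3.38 (SE 0.419, adjusted p = 0.00344), although the H2-Q genes are close paralogs whose reads may be split. Of 7 genes for peptide loading and trimming, 2 were higher DEGs both between the LPS- groups and between the LPS+ groups. The larger was the tapasin-related Tapbpl at 2.32 (adjusted p = 0.00108) and 1.73 (adjusted p = 5.78e-10), and the other was the aminopeptidase Lnpep at 1.61 (adjusted p = 0.00108) and 1.03 (adjusted p = 3.97e-08). Calr, Canx and Pdia3, chaperones of the loading complex, were under a fold of 2 in both, at 0.25, 0.21 and 0.078 between the LPS+ groups.

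Of the constitutive catalytic subunits Psmb5, Psmb6 and Psmb7, 0 of 3 were DEGs between the LPS- groups or between the LPS+ groups, with medians of 0.75 and 0.59. At an adjusted p below 0.05, 2 and 3 of them were higher, where 17.9% and 30.5% of all genes were. All 3 had an unadjusted p below 0.05 in the edgeR test in both, as 47.9% and 64.9% of all genes had in either direction. Of 11 other 20S core subunits, 4 were higher DEGs between the LPS- groups (Psma3, Psma4, Psma5 and Psma6) and 2 between the LPS+ groups (Psma5 and Psma6), Psma6 being the largest in both at 2.31 (SE 0.189, adjusted p = 0.000664) and 1.75 (SE 0.0588, adjusted p = 1.02e-10). None of the 18 subunits of the 19S regulatory particle was a DEG in either, though 8 and 17 were higher at an adjusted p below 0.05. The shares of all genes at this threshold were 17.9% and 30.5%. Of 5 proteasome activators and assembly factors, 3 were higher DEGs between the LPS- groups (Psme1, Psme2 and Psme4) and 1 between the LPS+ groups (Psme2). Psme1 and Psme2 form the PA28 activator, which opens the 20S core and is inducible by interferon. Psme2 was at 113 ± 27.0 CPM in LPS- tlr4f/f, 618 ± 128 in LPS- tlr4f/f-lysM-cre, 116 ± 6.55 in LPS+ tlr4f/f and 438 ± 5.47 in LPS+ tlr4f/f-lysM-cre (SD, n = 3), with log2 fold changes of 2.44 (adjusted p = 0.00141) between the LPS- groups and 1.93 (adjusted p = 2.91e-11) between the LPS+ groups. Psme1 was a higher DEG in the first at 1.50 (adjusted p = 0.0037) and stayed under a fold of 2 in the other at 0.91 (adjusted p = 4.46e-07).

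Of 14 regulators of class I transcription, 4 were higher DEGs between the LPS- groups and 3 between the LPS+ groups, Irf1 among them in both, and Stat2 was a lower DEG between LPS+ and LPS- tlr4f/f-lysM-cre. Ifnb1, which is among the 14, is left out of these counts of DEGs, because it passed the filter on low counts through the groups where it was high. Irf1, an interferon regulatory factor, was at 2.98 (adjusted p = 0.000886) between the LPS- groups and 2.33 (adjusted p = 2.18e-05) between the LPS+ groups. At an adjusted p below 0.05, 7 of the list, Ifnb1 included, were higher and 2 were lower in each of these comparisons. Rfxank, which encodes a subunit of the RFX complex, was lower in both, at -0.90 (adjusted p = 0.00344) and -0.35 (adjusted p = 0.000666). Ifnb1, which encodes interferon beta, had 141, 96 and 150 counts in the LPS- tlr4f/f-lysM-cre libraries and 13, 17 and 23 in LPS+ tlr4f/f-lysM-cre, against 2, 1 and 2 in LPS- tlr4f/f and 0 in every LPS+ tlr4f/f library. Against a floor of 3 counts per library it was at least 6.62-fold higher in LPS+ tlr4f/f-lysM-cre than in LPS+ tlr4f/f, and it fell by 3.15 on the log2 scale (SE 0.349, adjusted p = 0.00262) from LPS- to LPS+ tlr4f/f-lysM-cre. These are counts of single reads without molecular identifiers, so the floor covers counting error only. The medians of the list were 0.74 between the LPS- groups and 0.27 between the LPS+ groups, the latter also with Ifnb1 set at its bound.

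**Figure D4:**
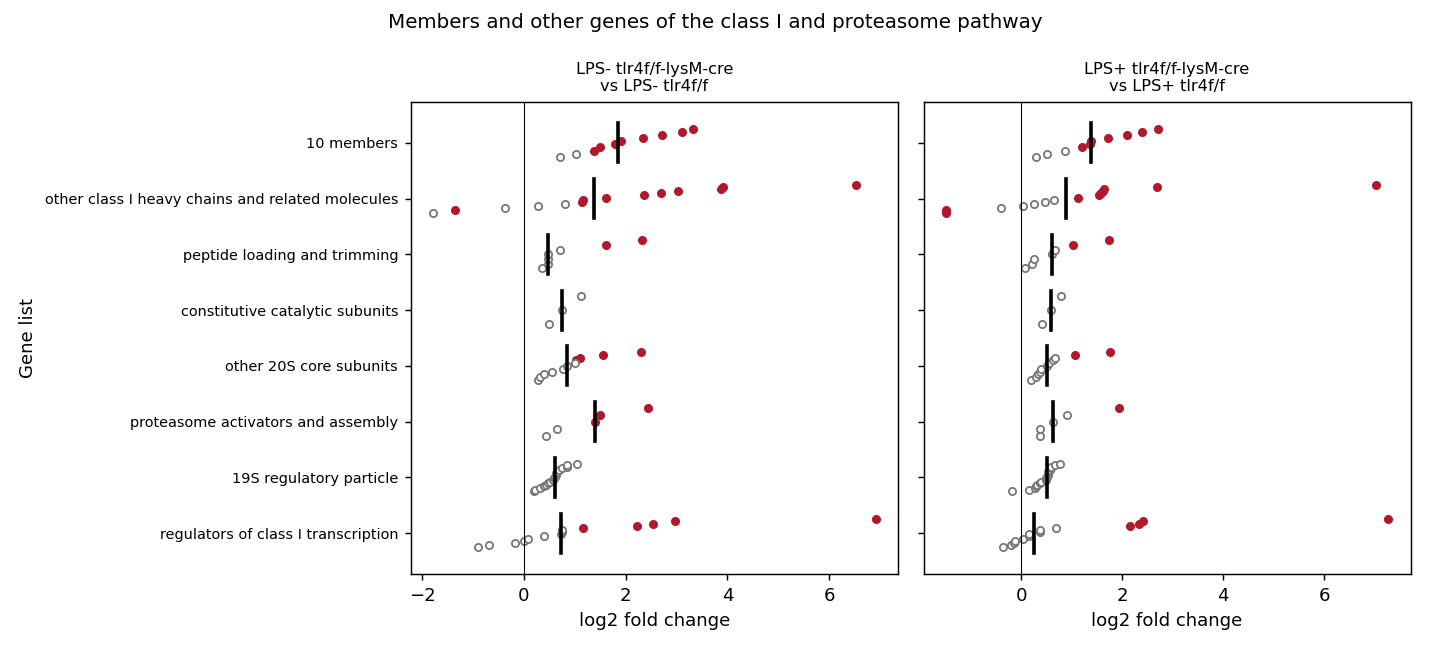
Log2 fold change (x axis) of each gene in the 10 genes described and in 7 other lists of the pathway (y axis), for the comparisons between the LPS- groups and between the LPS+ groups, where filled points are DEGs and vertical bars are list medians. The median of the 10 genes lies at 1.86 and 1.38, and the point farthest right among the regulators is Ifnb1, whose place rests on 0 to 2 counts in the lower group and depends on the prior count.

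Genes with the most similar pattern were ranked by the root-mean-square difference of centred log2 CPM over the 12 libraries among 15792 genes. Nearest to the mean of the 10 genes were Ogfr (0.0789), Snx20 (0.0979), Cd47 (0.124), Tor1aip1 (0.133) and Stard3 (0.142). Among the 10 genes themselves, Tapbp (0.133) and Psmb9 (0.134) lay nearest to that mean and H2-D1 (0.624) and Nlrc5 (0.683) farthest. Nearest to Nlrc5 were Bcl3 (0.179), Rnf213 (0.202), Daxx (0.212), Pnp (0.216) and LOC102639982 (0.223). Cd47 encodes a surface signal that restrains phagocytosis, and Bcl3 a nuclear partner of NF-kB. These distances are a description over libraries that share their groups.

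Libraries of a group did not vary evenly. The median SD of the 10 genes on the log2 scale was 0.242 in LPS- tlr4f/f, 0.324 in LPS- tlr4f/f-lysM-cre, 0.120 in LPS+ tlr4f/f and 0.0537 in LPS+ tlr4f/f-lysM-cre, against 0.326, 0.373, 0.116 and 0.128 over all genes. Within LPS- tlr4f/f-lysM-cre, replicate 3 was the lowest library for 9 of the 10 genes and the highest for B2m, and within LPS- tlr4f/f replicate 3 was the lowest for 8 of 10. In LPS+ tlr4f/f replicate 3, and in LPS+ tlr4f/f-lysM-cre replicate 1, was the lowest for 9 of 10. Replicate 3 of LPS- tlr4f/f-lysM-cre had the highest fibroblast and neutrophil marker sums, whereas replicate 3 of LPS- tlr4f/f had the lowest fibroblast marker sum of its group at 9.07 CPM. Without replicate 3 of LPS- tlr4f/f-lysM-cre, 7 of the 10 genes were higher DEGs against LPS- tlr4f/f and 5 were lower DEGs in LPS+ tlr4f/f-lysM-cre. In the latter fit 1180 of all genes were DEGs in either direction, against 867 with every library. The number over all genes in the former fit is not given here.

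Several of the 10 genes share exonic bases with a neighbour in the annotation, and the library kit named in the labels does not mark strand. Tap1 and Psmb9 share 212 exonic bases on opposite strands, which is 3.87% of the exonic bases of Tap1 and 5.79% of those of Psmb9. Tapbp shares 24.9% with the antisense gene Gm19412 and 4.11% with Zbtb22 on its own strand, Psmb8 shares 14.7% with Gm20496, Tap2 shares 14.1% with Gm15821 and 4.36% with Gm20496, and Nlrc5 shares 0.918% with 9330175E14Rik. Reads in bases shared on opposite strands cannot be assigned to a single gene without strand. Those shared with Zbtb22 could not be assigned by strand either. H2-K1, H2-D1, B2m and Psmb10 share none.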

How the data were processed

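The labels describe rRNA removal and polyA sequencing, with paired reads on an Illumina HiSeq. Per the labels and the study's methods, the authors trimmed reads (Trimmomatic 0.36), aligned them with HISAT2 (mm10) and ran HTSeq for counting. The strand setting is not given in the sources used here. They deposited whole-number counts per transcript, not normalized, in 115140 rows. Rows of a gene share reads, so the row with the highest total was used for each gene. The 10 genes and all lists were chosen with earlier results of these data known.

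Counts were fitted with edgeR 4.0.16 in R 4.3.3 (filterByExpr, TMM, robust quasi-likelihood fit, Benjamini-Hochberg adjustment), on the 6 libraries compared, or on all 12 for the interaction. The groups were taken as headed, and renamed for the exchanged reading. CPM are TMM-scaled over 12 libraries with 3 per group. Ratios were tested by exact permutation over libraries. The edgeR test was also run on simulated counts, where 200 genes changed by 2 on the log2 scale and the groups had equal spread. That setting does not check groups of unequal spread, as these are. Named genes were the 10, Tlr4, Lyz2, Il1b, Psmb5, Psmb6, Psmb7, Psme1, Psme2, in each list the DEG that changed most in each direction of a comparison, and the 5 genes of most similar pattern to the 10 and to Nlrc5. Other genes in the text (H2-M3, Mr1, Lnpep, chaperones, Psma3 to Psma5, Psme4, Irf1, Stat2, Rfxank, overlapping genes and the named cell type markers) were named after their values were seen. Alternatives were DESeq2 1.42.0, limma voom 3.58.1, RLE factors, other filters, a joint fit of 12 libraries, a block for the replicate number, a threshold of 0.05 on the adjusted p, sums over rows, exchanged headings and leaving out each library. Sequences and motifs come from RefSeq (GRCm38.p6) and positions from GENCODE vM21 (mm10). A gene of the lists is not reported here.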

Additional observations from a re-analysis of the deposited data

Results flagged for a closer look

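Outside the 10 genes, 5 of 72 genes of the pathway lists (6.94%, against 6.99% of all genes, so that the share is no result about the lists) differed in their LPS response between the genotypes at an adjusted p below 0.05, by the interaction term of edgeR over all 12 libraries, whose value is the same in both readings of the headings. The class I heavy chains H2-Q6 (-2.28 on the log2 scale, adjusted p = 0.0385), H2-T10 (-1.52, adjusted p = 0.0331) and H2-T22 (-1.13, adjusted p = 0.0315) and the interferon regulatory factor Irf2 (-0.82, adjusted p = 0.0371) had negative terms. Rfxank, a subunit of the RFX complex that binds class I and class II promoters, had a positive term (0.53, adjusted p = 0.0324). None of the 5 met the DEG criteria, and the H2-Q and H2-T genes are close paralogs whose reads may be split between them.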

How the results depend on the processing

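With the headings exchanged, the 4 pairwise fits change names and so their counts of DEGs among the 10 genes: LPS+ tlr4f/f against LPS- tlr4f/f then gives 8 in place of 0, LPS- tlr4f/f-lysM-cre against LPS- tlr4f/f 0 in place of 8, LPS+ against LPS- tlr4f/f-lysM-cre 7 higher in place of 5 lower, and LPS+ tlr4f/f-lysM-cre against LPS+ tlr4f/f 5 lower in place of 7 higher. The subunit ratios (Psmb8, Psmb9 and Psmb10 to their counterparts) then read 0.99, 0.64 and 1.53 for LPS+ tlr4f/f against LPS- tlr4f/f, 0.62, 0.61 and 1.30 for LPS+ against LPS- tlr4f/f-lysM-cre, -0.39, -0.77 and -0.21 for LPS- tlr4f/f-lysM-cre against LPS- tlr4f/f, and -0.75, -0.80 and -0.44 for LPS+ tlr4f/f-lysM-cre against LPS+ tlr4f/f. With an adjusted p of 0.05 and no limit on the fold, LPS+ against LPS- tlr4f/f-lysM-cre gave 9.

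Leaving out 1 library gave 0 to 5 DEGs between LPS+ and LPS- tlr4f/f-lysM-cre, 5 to 7 between the LPS- groups, 7 between the LPS+ groups and 3 to 5 in LPS+ tlr4f/f-lysM-cre compared with LPS- tlr4f/f. Whether the replicate numbers pair the libraries could not be decided. Deviations of same-numbered libraries correlated between -0.0374 and 0.472, with 5 of 18 pairs above 0.1. The highest were 0.472 for replicate 1 and 0.340 for replicate 2, both between the LPS- groups. Libraries of different numbers were not compared, so these values have no reference. With a block for the replicate number, the count was 0 in place of 5 between LPS+ and LPS- tlr4f/f-lysM-cre, 3 in place of 6 in LPS+ tlr4f/f-lysM-cre compared with LPS- tlr4f/f, and unchanged in the other 4 comparisons. The log2 fold change of Psmb10 between LPS+ and LPS- tlr4f/f was -0.080 with voom, -0.010 with all 12 libraries in 1 fit and -0.12 to 0.19 with single libraries left out, and that of H2-K1 in LPS+ tlr4f/f-lysM-cre compared with LPS- tlr4f/f was -0.076 to 0.29 with single libraries left out, none of these past the threshold. DESeq2 gave 0, 5, 9, 7, 6 and 0 DEGs among the 10 in the order LPS+ against LPS- tlr4f/f, LPS+ against LPS- tlr4f/f-lysM-cre, the LPS- groups, the LPS+ groups, LPS+ tlr4f/f-lysM-cre against LPS- tlr4f/f and the interaction. Over all genes, in that order, DESeq2 called 493, 2172, 4184, 3290, 3087 and 635 DEGs against 0, 867, 2500, 3165, 1952 and 157 with edgeR, and edgeR with all 12 libraries in 1 fit called 75, 1147, 4258, 2053 and 2429 in the 5 pairwise comparisons. Between LPS+ and LPS- tlr4f/f the filter of 1 count gave 34 and leaving out 1 library 0 to 182. The block gave 212 between LPS+ and LPS- tlr4f/f-lysM-cre and 921 in LPS+ tlr4f/f-lysM-cre compared with LPS- tlr4f/f. Of the values of single genes under alternatives, 830 kept direction and side of the threshold, 52 lost the call, 2 gained it and 6 changed sign; the causes were not tested.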
